A study of Mus musculus with 7 samples.

Results

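The 9 genes described here encode parts of the tight junction, the belt that seals neighbouring cells of the retinal pigment epithelium (RPE): the claudins Cldn1, Cldn2, Cldn3 and Cldn19, occludin (Ocln), the adhesion molecule JAM-A (F11r), the zonula occludens proteins ZO-1 (Tjp1) and ZO-3 (Tjp3), and cingulin (Cgn). They were taken by symbol from a table of 21861 gene rows; all 9 had a row and all 9 passed the expression filter. The RNA came from RPE of aged mice, collected 12 weeks after an adeno-associated virus (AAV) vector had been given. The 3 AAV-GFP libraries carried the vector control and the 4 AAV-GSTA4 libraries the vector for GSTA4, a glutathione transferase that detoxifies aldehydes from oxidised lipid; every library came from a vector-treated eye of an aged mouse. Age, sex, strain, the vector's promoter and the number of animals behind a library are not given in the sources used here, so p-values measure the spread between these libraries, which may be partly technical.

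The RPE separates the photoreceptors from the blood of the choroid, and its tight junctions form the outer part of the blood-retina barrier. Claudins are membrane-spanning proteins whose strands set how tight the belt is and which ions pass. Occludin and JAM-A lie in the same membrane belt, and the ZO proteins and cingulin tie it from inside to actin and to signalling proteins. Work on human RPE in culture names claudin-19 as a main RPE claudin.

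The stretch upstream of the start given in the RefSeq table is shown for 4 genes. These are Cldn1 and Cgn, for which every AAV-GSTA4 library lay above every AAV-GFP library, and F11r and Tjp3. F11r and Tjp3 were low in the same 2 AAV-GSTA4 libraries, as were Tjp1 and Cldn3, which are not shown. Sequences are from RefSeq (GRCm38.p6), 5′ to 3′ on the gene's strand, without bases that GENCODE M21 annotates as exon. Capitals mark matches on either strand to GGGCGG (a GC box), CACGTG or CAGGTG (E-boxes).
Cldn1 (chr16:26371842-26372089, minus strand): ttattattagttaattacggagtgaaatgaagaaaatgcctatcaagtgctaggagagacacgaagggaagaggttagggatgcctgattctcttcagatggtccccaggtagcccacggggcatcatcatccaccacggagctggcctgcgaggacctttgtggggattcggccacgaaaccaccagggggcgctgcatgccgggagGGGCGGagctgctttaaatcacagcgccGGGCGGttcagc
Cgn (chr3:94786493-94786732, minus strand): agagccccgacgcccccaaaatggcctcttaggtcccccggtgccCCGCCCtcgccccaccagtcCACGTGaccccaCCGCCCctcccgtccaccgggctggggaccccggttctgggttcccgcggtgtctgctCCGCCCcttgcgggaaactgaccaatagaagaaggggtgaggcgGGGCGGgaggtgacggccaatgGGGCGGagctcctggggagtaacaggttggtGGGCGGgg
F11r (chr1:171437319-171437534, plus strand): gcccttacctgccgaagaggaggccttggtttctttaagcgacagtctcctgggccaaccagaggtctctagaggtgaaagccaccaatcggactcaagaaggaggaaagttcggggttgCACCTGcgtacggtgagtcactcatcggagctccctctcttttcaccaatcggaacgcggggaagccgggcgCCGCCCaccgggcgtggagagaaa
Tjp3 (chr10:81291582-81291831, minus strand): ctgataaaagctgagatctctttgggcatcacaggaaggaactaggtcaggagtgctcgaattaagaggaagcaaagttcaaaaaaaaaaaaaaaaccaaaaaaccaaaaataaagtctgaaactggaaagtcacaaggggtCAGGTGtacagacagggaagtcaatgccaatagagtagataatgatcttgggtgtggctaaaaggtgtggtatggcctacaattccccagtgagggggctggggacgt
In the 250 bases before the first start that the table lists for each gene, GGGCGG occurred in 7 of the 9 genes and in 32.9% of 27025 promoters of the RefSeq table; the exceptions were Cldn2 and Tjp3. CAGGTG occurred in F11r and Tjp3 alone among the 9 genes, and in 17.1% of all promoters. It was absent from Tjp1 and Cldn3, which were low in the same 2 libraries as F11r and Tjp3. CACGTG occurred in Cgn alone among the 9, and in 6.05% of all promoters. CATGTG (in 12.2% of all promoters), TAATCC (in 6.38%) and the grainyhead-type AACCGGTT (in 0.122%) occurred in 0 of the 9. For Tjp1 that window (chromosome 7, 65371245 to 65371494) lies inside the GENCODE gene span given below, so it precedes an internal start and not the outer end of the gene. These are matches of letters in a short window and show no binding.

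Libraries held 15329181 to 28998964 counts, and the floor of 3 counts was at 0.111 to 0.176 CPM, the unit used below (counts relative to library size after edgeR's trimmed-mean scaling, TMM). The human transgene row hGSTA4 had 1 to 3 counts per AAV-GFP library. It had 45 counts (2.64 CPM) in AAV-GSTA4 replicate 3 and 1184 to 5239 (43.6 to 251 CPM) in the other AAV-GSTA4 libraries, so that row separated the groups. The d2EGFP row, a GFP reporter, did not: it had 99, 3970 and 2361 counts in the AAV-GFP libraries and 163, 64, 7 and 26 in the AAV-GSTA4 libraries, or 4.61 CPM in AAV-GFP replicate 1 against 8.57 CPM in AAV-GSTA4 replicate 1. AAV-GFP replicate 3 stood apart, with a mean correlation of log2 CPM of 0.838 with the others against 0.910 to 0.926, and with 608 CPM on 1490 olfactory and vomeronasal receptor genes against 27.5 to 129 CPM elsewhere. RPE RNA was present in every library: 18 RPE markers summed to 25556 to 75478 CPM in AAV-GFP and 65364 to 115868 CPM in AAV-GSTA4, with none at 0 in any library. Rgr was the largest of them, at 12261 to 61437 CPM, and Best1 was at only 1.15 to 3.32 CPM. Other cells were present too: 14 rod genes summed to 14971 to 41122 CPM in AAV-GFP and 7555 to 14043 CPM in AAV-GSTA4. In AAV-GFP replicate 3 the rod sum, 41122 CPM, exceeded the RPE sum, 25556 CPM. In bulk RNA, fewer cells of a type and less RNA per cell cannot be told apart.

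Per kilobase of annotated exon, Cldn1 was the most abundant of the 9 genes in all 7 libraries, and Cldn19 the least. Cldn1 lay at 74.1 ± 31.7 CPM per kb (SD, n = 7) and Cldn2 at 24.3 ± 8.58 CPM per kb, with Cldn1 above Cldn2 in 7 of 7 libraries. F11r followed at 14.7 ± 8.80, Ocln at 9.54 ± 3.22 and Tjp1 at 6.29 ± 1.79 CPM per kb. Cgn lay at 3.86 ± 1.02, Tjp3 at 3.23 ± 1.09 and Cldn3 at 2.23 ± 1.57 CPM per kb. Cldn19 closed the order at 0.309 ± 0.299 CPM per kb. Cldn1 before Cldn2, Tjp1 before Cgn and Cldn3 before Cldn19 held in 7 of 7 libraries, Ocln before Tjp1 in 6 of 7, and the other neighbours in 5 of 7, so Cldn2 and F11r, F11r and Ocln, Cgn and Tjp3, and Tjp3 and Cldn3 did not separate beyond their spread. Exon lengths are those of GENCODE M21, from 1259 bp for Cldn3 to 7811 bp for Tjp1, and the isoforms present were not measured.

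**Figure D1:**
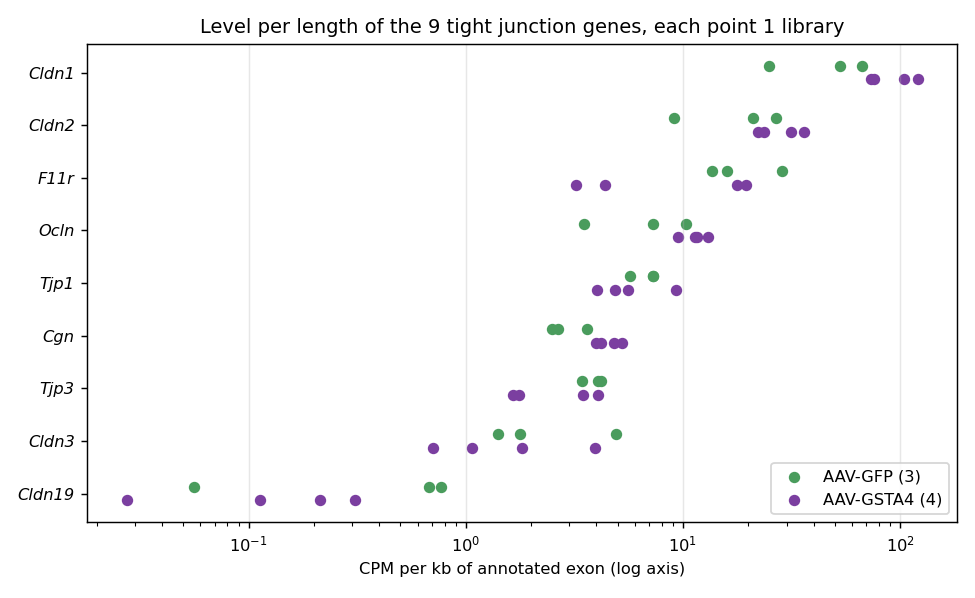
Level per length of the 9 tight junction genes, in CPM per kb of annotated exon on a log axis, with each point 1 library (green AAV-GFP, n = 3; purple AAV-GSTA4, n = 4). Cldn1 spans 24.9 to 121 CPM per kb and Cldn19 0.0275 to 0.769, and F11r and Tjp3 each show 2 AAV-GSTA4 points well below their other points.

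Of the 9 genes, 0 passed edgeR's quasi-likelihood F-test at a Benjamini-Hochberg adjusted p of 0.05 over the 15075 genes tested. Of all genes tested, 0% were called. The hGSTA4 transgene row was not called in this fit either, so a member that did not pass may still differ. DESeq2 called 167 of the 21861 gene rows and 0 of the 9 members, but gave no adjusted p for Cldn19. At an unadjusted p under 0.05 there were 2 in edgeR, Cldn1 and Cgn, both higher in AAV-GSTA4, where 5.27% of all genes were higher at that level; none of the 9 was lower, where 6.63% of all genes were. The groups did not overlap for the same 2 genes, and for 6.44% of all genes in that direction; 0 of the 9 were lower without overlap, against 5.61% of all genes. By sign, 4 of the 9 had a positive log2 fold change (Cldn1, Ocln, Cgn, Cldn2) and 5 a negative one (Tjp1, Tjp3, Cldn3, F11r, Cldn19). Their median log2 fold change was -0.19, against -0.07 over all genes tested. The split of 4 and 5 was the same with median-of-ratios factors and with library totals, although library totals moved the median of all genes to -0.37.

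Among the strand-forming claudins, Cldn1 (chromosome 16, 26356642 to 26371841, minus strand) encodes claudin-1, a sealing claudin. Its level was at 255, 322 and 121 CPM in the AAV-GFP libraries, in the order of their replicate numbers, and 505, 367, 585 and 355 CPM in the AAV-GSTA4 libraries. Every AAV-GSTA4 library was above every AAV-GFP library, although the lowest of the former and the highest of the latter were close, and AAV-GFP replicate 3 was the lowest of all. The means were 233 CPM ± 103 (SD, n = 3) and 453 CPM ± 111 (SD, n = 4). The log2 fold change was 0.96 ± 0.36 (SE), with a 95% interval of 0.15 to 1.77, and at an adjusted p of 0.375 in edgeR's test it did not pass. Without AAV-GFP replicate 3 it was 0.65. Without AAV-GSTA4 replicate 3, its highest library and the one with 45 hGSTA4 counts, it was 0.82. AAV-GSTA4 replicates 1 and 3 were its highest libraries, and without both it was 0.64 ± 0.45 (SE). With the ocular surface marker level as covariate it was 0.56 ± 0.45 (SE). Those last 2 fits were chosen after seeing the data, and leaving out the highest libraries had to lower it.

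Cldn2 (chromosome X, 139800828 to 139811386, plus strand) encodes claudin-2, which forms pores for cations and water. It was at 70.1, 89.2 and 30.4 CPM in AAV-GFP and at 120.1, 74.1, 78.4 and 104 CPM in AAV-GSTA4. The groups overlapped, since AAV-GFP replicate 2 lay above 2 AAV-GSTA4 libraries, and AAV-GFP replicate 3 was again the lowest. AAV-GSTA4 differed from AAV-GFP by a log2 fold change of 0.58 ± 0.35 (SE, edgeR adjusted p = 0.532). It was 0.91 without AAV-GFP replicate 2, 0.24 without AAV-GFP replicate 3 and 0.05 with the rod marker level as covariate. That level was higher in every AAV-GFP library than in any AAV-GSTA4 library, so here and below the rod fit cannot tell it from the group.

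Cldn3 (chromosome 5, 134986214 to 134987472, plus strand) encodes claudin-3, a sealing claudin of many epithelia. Its counts were low, at 133, 58 and 37 in AAV-GFP and 17, 103, 23 and 62 in AAV-GSTA4, or 6.19, 2.24 and 1.78 CPM and 0.894, 4.94, 1.35 and 2.29 CPM. The highest library was AAV-GFP replicate 1 and the lowest were AAV-GSTA4 replicates 1 and 3, with wide overlap. The log2 fold change of -0.52 ± 0.72 (SE; edgeR adjusted p = 0.798) was smaller than its error. It was 0.24 without AAV-GFP replicate 1, -0.81 without AAV-GFP replicate 3, and -0.22, -1.15 and -0.31 without AAV-GSTA4 replicates 1, 2 and 3. An antisense gene, Wbscr25, shares 40 exonic bases with Cldn3, and the strand setting of the counting is not given in the sources used here.

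Cldn19 (chromosome 4, 119255414 to 119262438, plus strand) encodes claudin-19, the claudin named above for human RPE in culture and also known from the kidney and from myelinating Schwann cells. It had 62, 85 and 5 counts in AAV-GFP and 25, 19, 2 and 13 in AAV-GSTA4. These are 2.89, 3.28 and 0.240 CPM and 1.31, 0.911, 0.117 and 0.479 CPM, the AAV-GSTA4 replicate 3 value lying under the floor of 3 counts. AAV-GFP replicates 1 and 2 were above all others, and AAV-GFP replicate 3 was below 3 of the 4 AAV-GSTA4 libraries. The log2 fold change was -1.59 ± 1.02 (SE), with a 95% interval of -3.87 to 0.69 and an edgeR adjusted p of 0.543. The antisense gene Gm12927 shares 90 exonic bases with Cldn19. Cldn19 was the only member to fail a filter of at least 10 counts in every library.

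Ocln (chromosome 13, 100496507 to 100552718, minus strand) encodes occludin, a membrane protein that regulates the junction. It was at 43.8, 30.8 and 14.8 CPM in AAV-GFP and at 40.0, 48.2, 49.2 and 55.0 CPM in AAV-GSTA4. The AAV-GSTA4 libraries were close to each other, and AAV-GFP replicate 1 lay above the lowest of them. Between the groups the log2 fold change was 0.69 ± 0.33 (SE; 95% interval -0.06 to 1.44; edgeR adjusted p = 0.446). It was 1.08 without AAV-GFP replicate 1 and 0.37 without AAV-GFP replicate 3. With the rod marker level as covariate, which did not overlap between the groups, it was -0.14.

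F11r (chromosome 1, 171437535 to 171464603, plus strand) encodes JAM-A, an immunoglobulin-type adhesion molecule also carried by leukocytes, platelets and endothelium. It was at 75.8, 42.5 and 36.4 CPM in AAV-GFP and at 8.57, 52.2, 11.6 and 47.3 CPM in AAV-GSTA4. AAV-GSTA4 replicates 1 and 3 stood below every other library, while replicates 2 and 4 lay within the AAV-GFP range. The highest library was 8.85 times the lowest, the widest range among the members other than Cldn19. The log2 fold change of -0.78 ± 0.60 (SE, edgeR adjusted p = 0.618) did not pass, and it was -0.04 without AAV-GSTA4 replicates 1 and 3. That fit was chosen after seeing the data, and leaving out the lowest libraries had to raise the log2 fold change. With the rod marker level as covariate, which did not overlap between the groups, it was -2.21. With 1 library left out it was -0.39 without AAV-GFP replicate 1 and -0.46, -1.19 and -0.50 without AAV-GSTA4 replicates 1, 2 and 3.

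The plaque genes followed both patterns. Tjp1 (chromosome 7, 65296165 to 65527781, minus strand), which encodes the scaffold ZO-1, was at 56.8, 44.8 and 56.9 CPM in AAV-GFP and at 38.0, 72.9, 31.3 and 43.5 CPM in AAV-GSTA4. The groups overlapped, the highest library and the lowest both being AAV-GSTA4, and its log2 fold change was -0.19 ± 0.29 (SE; 95% interval -0.85 to 0.48; edgeR adjusted p = 0.831), the smallest in size of the 9. It was -0.48 without AAV-GSTA4 replicate 2, -0.02 without AAV-GSTA4 replicate 3 and -0.08 without AAV-GSTA4 replicate 1. Without AAV-GFP replicates 2 and 3, each in turn, it was -0.29 and -0.12, and with library totals as scaling -0.50.

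Tjp3 (chromosome 10, 81273207 to 81291581, minus strand), which encodes the epithelial scaffold ZO-3, was at 15.1, 12.7 and 15.6 CPM in AAV-GFP and at 6.52, 12.9, 6.11 and 15.1 CPM in AAV-GSTA4. As for F11r, AAV-GSTA4 replicates 1 and 3 lay below all other libraries and replicates 2 and 4 did not. Its log2 fold change was -0.50 ± 0.37 (SE; edgeR adjusted p = 0.607), and it was -0.03 without those 2 libraries, -0.32 without replicate 1 alone and -0.31 without replicate 3 alone. As these were its lowest libraries, leaving them out had to raise it, and the fit without both was chosen after seeing the data. The exons of Tjp3 share 40 bases with Apba3, which lies on the opposite strand.

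Cgn (chromosome 3, 94760069 to 94786492, minus strand) encodes cingulin, which binds ZO proteins and actomyosin. It was at 15.0, 21.8 and 16.1 CPM in AAV-GFP and at 28.9, 25.4, 24.1 and 31.6 CPM in AAV-GSTA4. Every AAV-GSTA4 library was above every AAV-GFP library, and AAV-GFP replicate 3 was not the lowest here. The means were 17.6 CPM ± 3.68 (SD, n = 3) and 27.5 CPM ± 3.42 (SD, n = 4). Its log2 fold change was 0.64 ± 0.24 (SE; 95% interval 0.10 to 1.18), and the edgeR adjusted p was 0.375. With library totals as scaling it was 0.35.

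**Figure D2:**
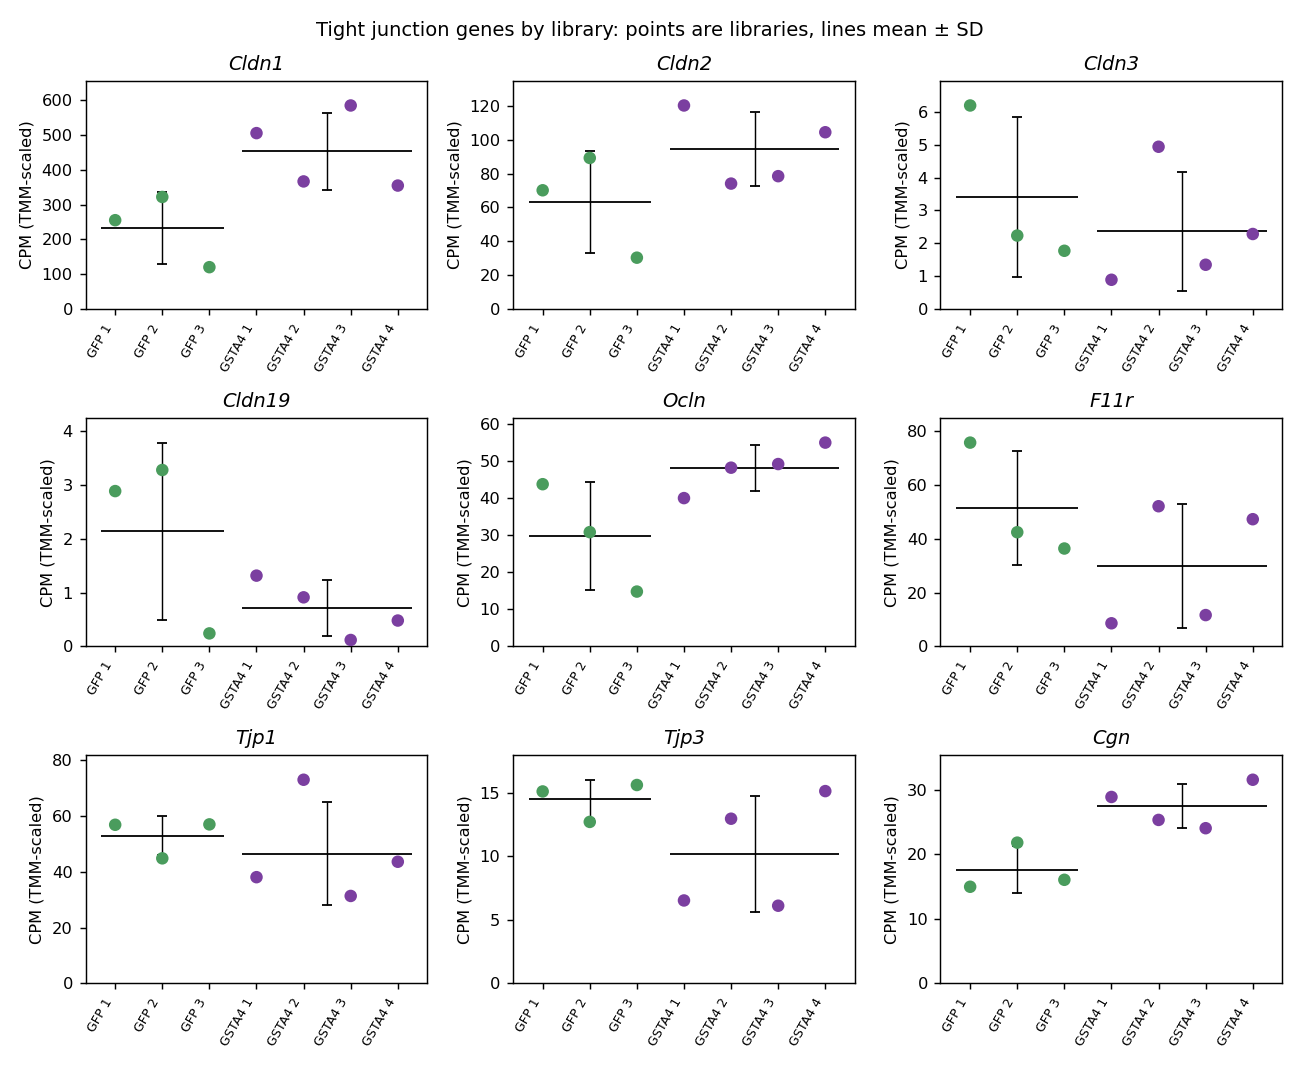
CPM of the 9 tight junction genes in each library (green AAV-GFP replicates 1 to 3, purple AAV-GSTA4 replicates 1 to 4), with the group mean as a line and the SD as a bar; each panel has its own axis. Cldn1 and Cgn show no overlap between the groups, and F11r, Tjp3, Tjp1 and Cldn3 show AAV-GSTA4 replicates 1 and 3 below every other library.

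**Figure D3:**
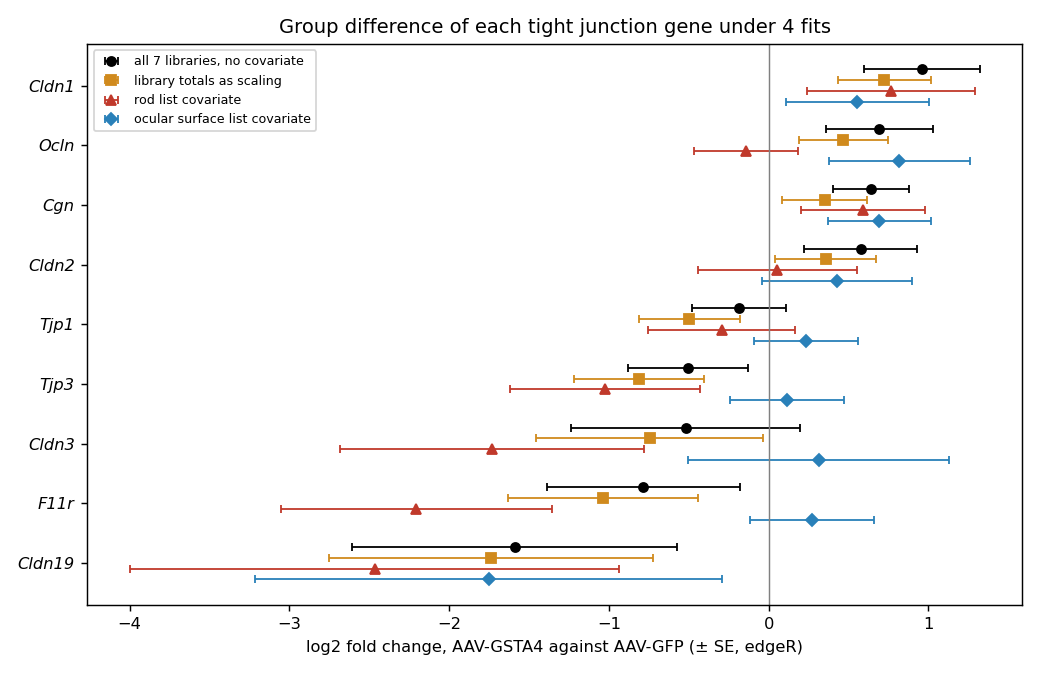
Group difference (AAV-GSTA4 relative to AAV-GFP, log2 fold change ± SE) of each gene in edgeR, in the fit on all 7 libraries without covariate (black), with library totals as scaling (orange), and with the rod (red) or ocular surface (blue) marker level as covariate. Cldn1, Cgn and Cldn2 stay positive and Cldn19 negative in all 4 fits, Ocln is negative with the rod covariate alone, and Tjp1, Tjp3, Cldn3 and F11r turn positive with the ocular surface covariate.

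AAV-GSTA4 replicates 1 and 3 were the lowest 2 of their group for 4 of the 9 members, Tjp1, Tjp3, Cldn3 and F11r, and for 20.3% of all genes tested. The same held for 11 of 12 ocular surface epithelium markers, the exception being the corneal keratin Krt12. It also held for 5 of the 10 other claudins tested, 3 of 7 leukocyte markers and 4 of 12 adherens junction genes. Among 18 RPE markers it held for 4 (Tyrp1, Dct, Pmel and Mlana), while 5 were highest in those 2 libraries. The ocular surface markers summed to 855 to 932 CPM in AAV-GFP and to 93.5, 876, 112 and 1015 CPM in AAV-GSTA4 replicates 1 to 4. Krt15, a keratin of stratified epithelium and the highest of them, was at 499, 502 and 252 CPM in AAV-GFP and 44.6, 448, 51.8 and 551 CPM in AAV-GSTA4. Trp63 alone reached 0 counts, in 1 library. With the ocular surface level as covariate, chosen after seeing the data, the log2 fold change was 0.27 ± 0.39 (SE) for F11r, 0.11 ± 0.36 for Tjp3, 0.31 ± 0.82 for Cldn3 and 0.23 ± 0.32 for Tjp1. This covariate, a mean log2 CPM, was 1.44 and 1.91 in AAV-GSTA4 replicates 1 and 3 and 4.26 to 4.74 elsewhere. It mainly marked the libraries in which these 4 genes were lowest, so their move upward was built in. The part of ocular surface tissue in these levels was not tested further.

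**Figure D4:**
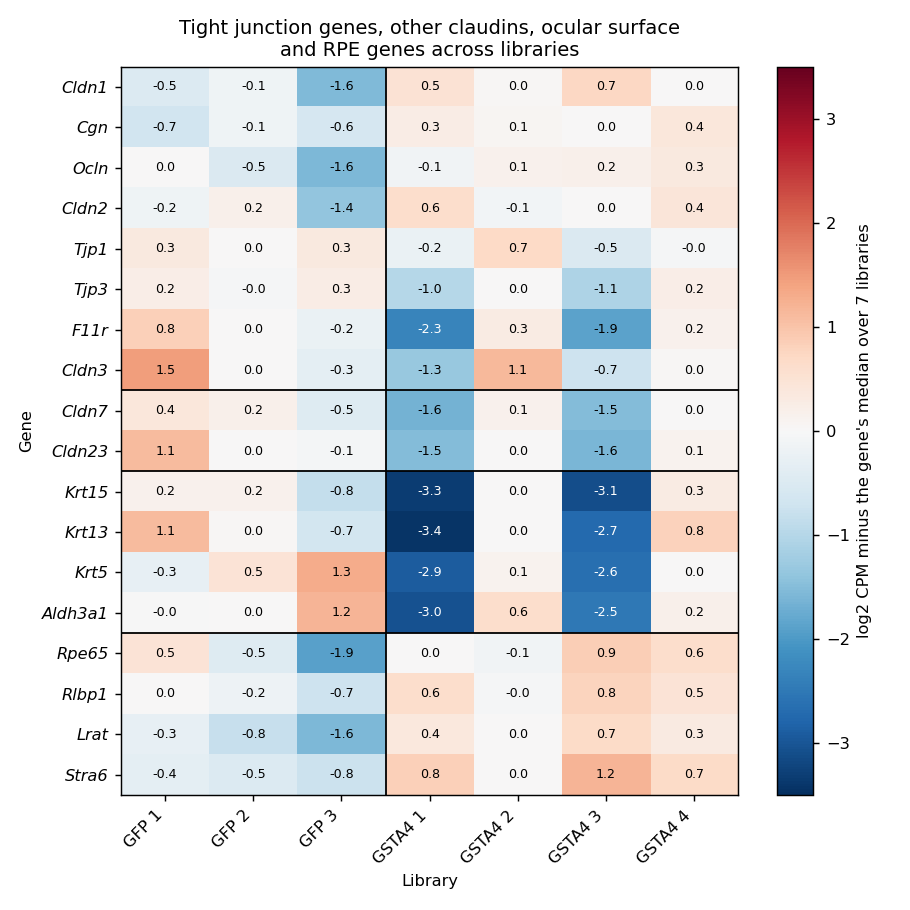
Log2 CPM of each gene minus its median over the 7 libraries, for 8 members, 2 other claudins, 4 ocular surface markers and 4 RPE markers; libraries are columns, with a line between the groups, and lines separate the gene sets. F11r is at -2.3 and -1.9 in AAV-GSTA4 replicates 1 and 3, where Krt15 is at -3.3 and -3.1, and Cldn1 and Ocln are at -1.6 in AAV-GFP replicate 3, where Rpe65 is at -1.9. The RPE markers shown are among the 13 of 18 with a positive log2 fold change; 5 were negative. Tyrp1, Dct, Pmel and Mlana, not shown, were lowest of their group in AAV-GSTA4 replicates 1 and 3.

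Cldn1, Ocln and Cldn2 were each lowest in AAV-GFP replicate 3, the library that was also lowest in summed RPE markers, at 25556 CPM, and highest in rod genes, at 41122 CPM. Relative to the mean log2 CPM of the 18 RPE markers, the difference of group means for Cldn1 was 0.58 on the log2 scale, against 1.04 without that reference. For Ocln it was 0.35 against 0.82, for Cldn2 0.22 against 0.68 and for Cgn 0.19 against 0.65. The reference was a single value per library, so every difference had to move down by the same amount, whatever the gene. The 5 negative differences thereby became larger in size: -0.71 against -0.25 for Tjp1, -1.07 against -0.61 for Tjp3 and -1.03 against -0.57 for Cldn3. Those of F11r and Cldn19 were -1.59 against -1.13 and -1.68 against -1.22. On this relative scale Cldn1 was at -1.91, -1.47 and -1.70 in AAV-GFP and -0.80, -1.18, -0.89 and -1.60 in AAV-GSTA4, so that its groups overlapped. Among the RPE markers themselves the median log2 fold change was 0.58, with 13 of 18 positive and 0 past the adjusted threshold. The part of RPE content in the levels of these genes was not tested.

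Other claudins showed which family members accompanied Cldn1 and Cldn2. There were 28 further claudin rows, of which 10 passed the expression filter, and 0 passed the adjusted test. At an unadjusted p under 0.05, 1 was higher, where 5.27% of all genes were, and the median log2 fold change was -0.43. Cldn12, a broadly expressed claudin, was at 67.5, 53.1 and 48.6 CPM in AAV-GFP and 84.4, 85.6, 86.4 and 81.2 CPM in AAV-GSTA4, without overlap, a log2 fold change of 0.58 ± 0.20 (SE; edgeR adjusted p = 0.363). Per kilobase it followed Cldn2, at 17.1 CPM per kb, before Cldn10 at 13.7, Cldn23 at 11.5 and Cldn7 at 5.45. Cldn23 (46.4, 21.6 and 20.7 CPM in AAV-GFP; 7.47, 21.9, 7.10 and 23.6 CPM in AAV-GSTA4) and Cldn7 (16.5, 14.0 and 9.12 CPM; 4.00, 13.8, 4.40 and 12.5 CPM) shared the low values of F11r in AAV-GSTA4 replicates 1 and 3. Cldn10, a paracellular ion channel, was highest in AAV-GFP replicate 1 at 75.6 CPM and was at 18.2 to 53.1 CPM in AAV-GSTA4. Cldn5, the claudin of endothelium, was at 7.10 CPM in AAV-GFP replicate 3 and at 0.736 to 1.88 CPM in the other libraries. The sums of 11 endothelial markers were 164 to 215 CPM in AAV-GFP and 130 to 203 CPM in AAV-GSTA4, with Ramp2, a receptor-modifying protein, the largest part in 6 of the 7 libraries. Without Ramp2 they came to 181 CPM in AAV-GFP replicate 3 and to 40.1 to 63.9 CPM in the other libraries. Of the 11 markers, 6 were highest in AAV-GFP replicate 3. Among these were the VEGF receptor Kdr, at 104 CPM against 11.1 to 22.8 CPM, and Vwf, at 20.7 CPM against 1.21 to 3.99 CPM. Kdr alone gave 104 of the 181 CPM. The markers were divided, since Tek, at 1.20 CPM, and Ramp2, at 34.6 CPM, were lowest in that library. Emcn, Egfl7 and Plvap were highest in AAV-GFP replicate 2. The part of endothelium in the Cldn5 value was not tested. Cldn34c1, Cldn11, Cldn4, Cldn20 and Cldn8 had means over the 7 libraries from 0.853 CPM for Cldn8 to 5.65 CPM for Cldn34c1, with adjusted p from 0.736 to 0.986 in edgeR's test.

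Of 9 other membrane proteins of the tight junction, 8 were tested and 0 passed in edgeR. At an unadjusted p under 0.05, 1 was higher and 1 lower, where 5.27% and 6.63% of all genes were. The median log2 fold change was 0.28. Jam3, the relative of JAM-A called JAM-C, was at 34.6, 38.2 and 20.3 CPM in AAV-GFP and 70.1, 50.4, 59.1 and 54.1 CPM in AAV-GSTA4. Without overlap of the groups, its log2 fold change was 0.91 ± 0.26 (SE; edgeR adjusted p = 0.363), opposite in sign to that of F11r. Marveld3, a relative of occludin, had a log2 fold change of -1.57 ± 0.64 (SE; edgeR adjusted p = 0.391), but 1 library stood far above the rest: AAV-GFP replicate 3 was at 21.4 CPM and the other 6 at 2.79 to 4.70 CPM.

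All 23 other plaque and polarity genes were tested, and 0 passed. At an unadjusted p under 0.05, 3 were higher and 3 lower, where 5.27% and 6.63% of all genes were. The median log2 fold change was -0.08, close to that of all genes. Arhgef18, a guanine nucleotide exchange factor of the apical junction, was at 105, 108 and 77.0 CPM in AAV-GFP and 245, 117, 238 and 195 CPM in AAV-GSTA4, a log2 fold change of 1.04 ± 0.30 (SE; edgeR adjusted p = 0.363). Ybx3, the ZO-1-binding transcription factor ZONAB, was at 41.5, 53.5 and 42.5 CPM in AAV-GFP and 24.9, 25.8, 33.8 and 25.1 CPM in AAV-GSTA4, a log2 fold change of -0.74 ± 0.21 (SE; edgeR adjusted p = 0.363). Groups were free of overlap for both, as for 6.44% of all genes in the higher direction and 5.61% in the lower. The polarity genes under that unadjusted p were divided in sign. Patj and Pard6b had log2 fold changes of 0.61 and 0.73, whereas Prkci, an atypical protein kinase C, and Pard6g were at -0.86 and -0.99, with adjusted p from 0.373 to 0.411 in edgeR's test. Of 12 adherens junction genes, with a median of 0.08, 0 passed and 2 were higher at an unadjusted p under 0.05 (5.27% of all genes). Those were Cdh3, the P-cadherin of the RPE (0.81 ± 0.26, SE; edgeR adjusted p = 0.363), and Ctnna1, alpha-catenin (0.53 ± 0.23, SE; edgeR adjusted p = 0.411), while Ctnnb1, beta-catenin, was at -0.01 ± 0.24.

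The genes whose log2 CPM was most like that of Ocln over the 7 libraries, among 7300 genes of mean log2 CPM of at least 4, were G3bp2 (Pearson r = 0.998), Ctnnal1 (r = 0.992) and Tnfrsf19 (r = 0.991). For Cldn19 they were Nudt4 (r = 0.979), Kcmf1 (r = 0.977) and Tent2 (r = 0.976). Each r is the top of a long ranking over only 7 libraries, whose composition and depth move many genes together, and is given as a description.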

How the data were processed

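The authors deposited raw read counts per gene symbol for 7 libraries of polyadenylated RNA, made with a template-switching cDNA kit and transposase, per the labels' protocols. The submitters' processing notes name STAR 2.7.1a, featureCounts 1.6.2 and the builds GRCm38 (mm10) and GRCh38 (hg38); the annotation, strand setting and handling of multi-mapping reads are not given in the sources used here. No molecular identifiers are mentioned, so floors cover counting error only. Columns were matched to samples by library name; replicates are numbered by sample title.

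The test was edgeR 4.0.16's quasi-likelihood F-test (R 4.3.3) on all 7 libraries, with TMM scaling, the default expression filter, robust dispersion and Benjamini-Hochberg adjustment (threshold 0.05); DESeq2 1.42.0 was an alternative. The biological coefficient of variation was 48.2%. Log2 CPM used a prior count of 2. The test was tested on simulated data. Of the rows, 26 repeated a symbol and were kept. Every pair of libraries differed by more than sampling noise (chi-square per gene at least 50.7). Coordinates and exon lengths are from GENCODE M21 (GRCm38). The listed Pals1 was matched to Mpp5.

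The members and lists were chosen with earlier results of these data known. All 9 members are named, of the other junction lists those with an unadjusted p under 0.05 or a mean of at least 100 CPM, every other tested claudin, and for likeness the 3 genes with the highest correlation to Cldn19 and to Ocln. Alternatives were other scalings and filters, DESeq2, replicate blocks, a rod covariate and each library left out; an ocular surface covariate and a fit without the 2 AAV-GSTA4 libraries lowest in that list were chosen after seeing the data.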

Additional observations from a re-analysis of the deposited data

Results flagged for a closer look

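Of 18 sets of 4 AAV-GSTA4 values examined (the 9 genes and 9 marker lists), 2 had a library far from the other 3, where chance gives about 1 in 20. Lens fibre markers summed to 11867 CPM in AAV-GSTA4 replicate 2, with a gap to the nearest library of 0.960 of the group's range. Myelinating glia markers summed to 301.6 CPM in AAV-GSTA4 replicate 1, with a gap of 0.945 of the range. None of the 9 tight junction genes was far from its group in this sense. Within its group AAV-GSTA4 replicate 2 was highest for 3 of the 9: Tjp1, at 72.9 CPM, F11r, at 52.2 CPM, and Cldn3, at 4.94 CPM; the part of lens tissue in these values was not tested.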

How the results depend on the processing

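The count of members past the adjusted threshold was 0 in every alternative run, although Cldn19 had no adjusted p in DESeq2. Over all genes the count was 0, except 167 with DESeq2, 1 with a replicate block by title number (hGSTA4), 1 with the rod covariate (Cyp2f2) and 0 to 1 across the fits that left out a library (hGSTA4, without AAV-GSTA4 replicate 3); the cause of the DESeq2 difference was not tested. Same-numbered libraries deviated from their group means with correlations of -0.0889, 3.3e-05 and 0.00904 by title number. By library name number they were -0.0889, 0.0146 and -0.128. These values showed no pairing by number, but so few correlations cannot exclude it. The replicate block by library name number gave 0 genes. Cldn1, Cgn, Cldn2 and Cldn19 kept their sign in all alternatives, with ranges of 0.56 to 1.27, 0.35 to 0.83, 0.05 to 0.91 and -2.47 to -1.14. The others ranged from -0.14 to 1.08 (Ocln), -0.50 to 0.23 (Tjp1), -1.02 to 0.11 (Tjp3), -1.73 to 0.31 (Cldn3) and -2.21 to 0.27 (F11r). Signs turned for Ocln with the rod covariate (-0.14), whose level did not overlap between the groups and cannot be told from the group. For Cldn3 the sign turned without AAV-GFP replicate 1 (0.24, with -1.15 to 0.24 over the fits that left out a library). With the ocular surface covariate, signs turned for Tjp1 (0.23), Tjp3 (0.11), Cldn3 (0.31) and F11r (0.27). Without AAV-GSTA4 replicates 1 and 3 they turned for Tjp1 (0.16) and Cldn3 (0.11). Tjp1, Tjp3, Cldn3 and F11r were lowest in those libraries, so a move upward was built into both settings. Beyond that, the cause of the turned signs was not tested. Depth limits Cldn19, at 2 to 85 counts a library, most.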
